A study of Arabidopsis thaliana with 12 samples.

Results

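The triple mutant cpr5npr1svi1 of Arabidopsis thaliana was compared with the wild type Col-0, called WT here, to describe what differs from WT in plants that carry svi1 together with cpr5 and npr1. The comparison used 4 of the 12 arrays of the series, 2 of cpr5npr1svi1 and 2 of WT, paired by replicate number. The double mutant cpr5npr1, with 2 arrays, served as a second point of comparison, and the single mutants cpr5 and npr1, with 2 arrays each, served to choose one group of probe sets. Total RNA came from aerial parts of 2-week-old plants, and every group grew at 23 C and 70% humidity with a 16 h photoperiod. The labels describe cpr5npr1 as resistant to the downy mildew pathogen P. parasitica and name svi1 only as part of the triple mutant, without its gene, its allele or a single mutant. For some genes the 2 arrays of cpr5scv1 are also quoted, a double mutant of cpr5 and the suppressor scv1 whose susceptibility to P. parasitica the labels give as that of the wild type. Whether both arrays of a genotype stem from independent batches of plants is not stated, so every p-value reflects the spread between arrays alone, which may be technical.

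Of 22746 probe sets that are not controls, 15536 passed the brightness filter and lay outside the loci AT2G36240 to AT2G45860, a stretch of chromosome 2 that shifts together in cpr5npr1svi1 and was left out. Among these 15536, 8338 were placed at 1 locus each (8246 loci), 307 matched several genes and 6891 had no listed locus. Only placed probe sets are named. Some of the 6891 may still belong to the left-out stretch, so the main counts are also given over placed probe sets.

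CPR5 is a nuclear envelope protein, and loss of it gives spontaneous lesions and defence gene expression without a pathogen. NPR1 is a co-activator through which salicylic acid turns on its target genes. In cpr5npr1 the cpr5 mutation acts without functional NPR1, and cpr5npr1svi1 adds svi1 to that state. CPR5, NPR1, PR1, PR2 and PR5 had no probe set of 1 gene. The labels could thus not be checked against the mutated genes, and none of 12 fixed leaf, root, flower and seed markers had one to check the tissue. The median signal of the arrays ranged from 36.8 to 43.5, and each array had 76.9% to 79.5% of its probe sets above background, taken as a signal of 7.76. The share was 79.0% and 79.2% in the cpr5npr1svi1 arrays and 76.9% and 77.2% in the WT arrays. Bulk tissue cannot separate fewer cells of a type from less RNA per cell.

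The largest rises, led by the defence gene OSM34, were mostly of genes with at least 1 WT array below background, and the falls were smaller than the rises. Among placed probe sets, 792 rose (9.50%) and 705 fell (8.46%) in cpr5npr1svi1 relative to WT, at an adjusted p below 0.05 in limma. Over all 15536 the counts were 1742 higher (11.2%) and 1454 lower (9.36%). The rises were larger, with a median log2 difference of 1.05, 416 over 1 and 148 over 2. The falls had a median of -0.75, with 195 beyond 1 and 27 beyond 2 in size.

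The balance between rises and falls depended on the scaling. Of all calls, 54.5% were higher with the deposited scaling, 46.3% after quantile normalization and 31.6% after scaling each array to one median, which moved the median difference of all probe sets to -0.16 from 0.03. Among placed probe sets the shares were 52.9%, 42.5% and 28.0% in the same order. The counts also depended on single arrays. Placed rises numbered 398 without cpr5npr1svi1 replicate 1, 300 without cpr5npr1svi1 replicate 2, 551 without WT replicate 1 and 875 without WT replicate 2, and placed falls numbered 468, 270, 413 and 684 in the same order. Without the replicate block, 447 placed probe sets rose and 329 fell. Across the 8338 placed probe sets the differences of the 2 replicate pairs correlated at r = 0.557, a description in which probe sets of one array are not independent.

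**Figure D1:**
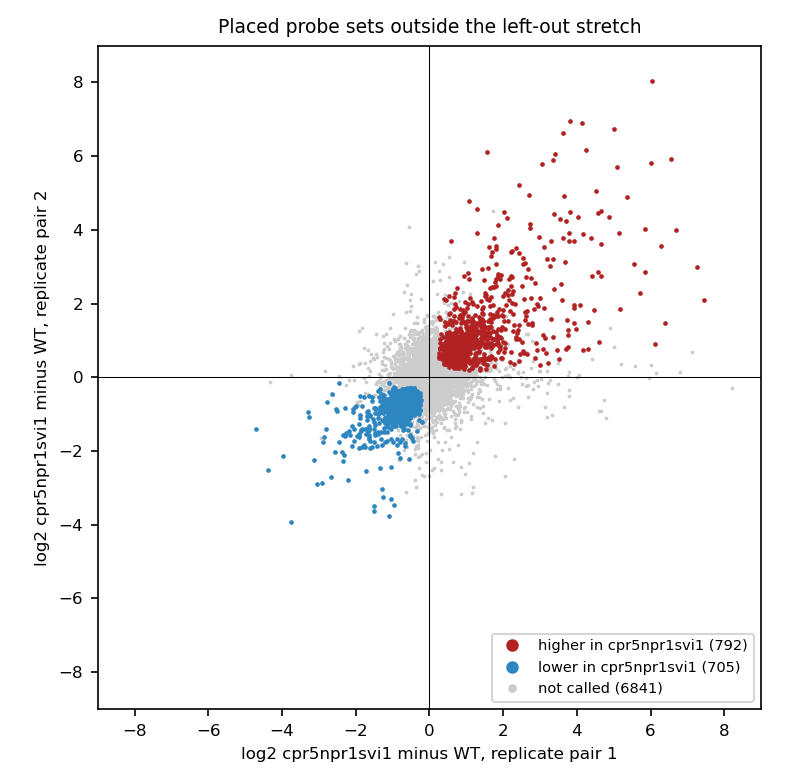
Each point is a placed probe set outside the left-out stretch, with the log2 difference between cpr5npr1svi1 and WT in replicate pair 1 on the horizontal axis and in pair 2 on the vertical axis. Red points were called higher in cpr5npr1svi1 (792), blue points lower (705) and grey points were not called. The largest rises reach further from 0 than the largest falls.

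OSM34, an osmotin-like protein of the thaumatin family of defence proteins, gave the largest difference among the named rises. Its signal was 257 and 334 in cpr5npr1svi1 and 323 and 397 in cpr5npr1, against 3.92 and 1.27 in WT. Both mutants stood far above WT and close to each other, and both WT arrays lay below background. With those arrays raised to background, OSM34 was at least 37.7-fold higher in cpr5npr1svi1 than in WT (adjusted p = 0.0001).

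AT3G13610, also named F6'H1, encodes the feruloyl-CoA hydroxylase that makes the coumarin scopoletin. Its signal was 84.0 and 53.1 in cpr5npr1svi1 and 145 and 26.1 in cpr5npr1, against 0.890 and 0.879 in WT, at least 8.60-fold higher in cpr5npr1svi1 than in WT (adjusted p = 0.000302). The cpr5npr1svi1 arrays lay between the 2 cpr5npr1 arrays. AT2G18690, a locus without a symbol, was bright enough in WT for a plain ratio: 507 and 452 in cpr5npr1svi1 and 756 and 328 in cpr5npr1, against 12.4 and 15.1 in WT, which was 34.9-fold higher in cpr5npr1svi1 than in WT (log2 5.13 ± 0.49, SE, adjusted p = 0.000122).

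The other loci among the 12 largest rises, AT4G39670, AT1G57630, AT3G18250, AT1G78410, AT1G30700, AT3G47480, AT1G26390, AT1G76960 and AT4G16260, had log2 differences of 5.13 to 5.92. In each, at least 1 WT array lay below background. AT4G39670 had 144 and 92.0 in cpr5npr1svi1 and 138 and 64.5 in cpr5npr1, against 2.21 and 1.64 in WT, at least 14.8-fold higher in cpr5npr1svi1 than in WT (adjusted p = 4.98e-06). None of the 12 largest rises was called different from cpr5npr1. Among the alternatives, AT1G76960 (0.0494) and AT4G16260 (0.0447) passed when only the groups compared were fitted, and AT1G76960 also with a pseudocount of 32 (0.0328). Each kept its call against WT under every alternative in which it was tested, leaving out any of the 4 arrays included. Passing without the replicate block was, however, a condition of their choice.

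Genes with a symbol added proteases, calcium sensors and enzymes of the wall and of phenylpropanoid metabolism to the rises. SBT3.3 is a subtilisin-like serine protease linked to immune priming. It had 58.4 and 50.2 in cpr5npr1svi1 and 41.1 and 20.2 in cpr5npr1, against 2.56 and 1.52 in WT, at least 6.98-fold higher in cpr5npr1svi1 (adjusted p = 0.000253). SBT3.5, a related protease, had 148 and 119 in cpr5npr1svi1 and 274 and 149 in cpr5npr1, against 23.0 and 15.7 in WT, a 6.99-fold rise in cpr5npr1svi1 (adjusted p = 0.000238). Neither protease overlapped between cpr5npr1svi1 and WT, which the rule for named rises required.

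JRG21, a jasmonate-induced gene, had 152 and 271 in cpr5npr1svi1 and 48.6 and 42.6 in cpr5npr1, against 14.9 and 4.52 in WT, at least 18.8-fold higher in cpr5npr1svi1 than in WT (adjusted p = 0.000405). Both cpr5npr1svi1 arrays stood above both cpr5npr1 arrays, a log2 difference of 2.16 that did not pass the test (adjusted p = 0.0652) but passed with a pseudocount of 32 (0.0043) and when only the groups compared were fitted (0.000875). CYP71B23, a cytochrome P450, was brightest in cpr5npr1, with 74.8 and 99.8 in cpr5npr1svi1 and 146 and 127 in cpr5npr1, against 7.28 and 10.8 in WT. It was at least 9.44-fold higher in cpr5npr1svi1 than in WT (adjusted p = 2.99e-05), and its log2 difference of -0.66 from cpr5npr1 was not called (adjusted p = 0.193).

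SWEET8, a plasma membrane sugar transporter, had 62.4 and 60.7 in cpr5npr1svi1 and 50.4 and 47.0 in cpr5npr1, against 15 and 12.4 in WT, a 4.52-fold rise in cpr5npr1svi1 (adjusted p = 0.000206). PUB24, a ubiquitin ligase that restrains immune signalling, had 88.9 and 85.3 in cpr5npr1svi1 and 74.0 and 78.6 in cpr5npr1, against 16.4 and 31.8 in WT, a 3.81-fold rise in cpr5npr1svi1 (adjusted p = 0.00124). Both genes were high in each array of both mutants. ACA.l rose 4.25-fold, the peroxidase PRX52 5.54-fold, and the expansin EXPA16, a wall-loosening protein, 5.03-fold, with adjusted p-values of 2.64e-05, 0.00153 and 0.000392 in the same order. GRX480, a glutaredoxin induced by salicylic acid, had 83.3 and 87.9 in cpr5npr1svi1, against 23.1 and 13.2 in WT (adjusted p = 0.0348). Its call was lost without cpr5npr1svi1 replicate 1 (0.143), without cpr5npr1svi1 replicate 2 (0.152) and without WT replicate 2 (0.146).

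**Figure D2:**
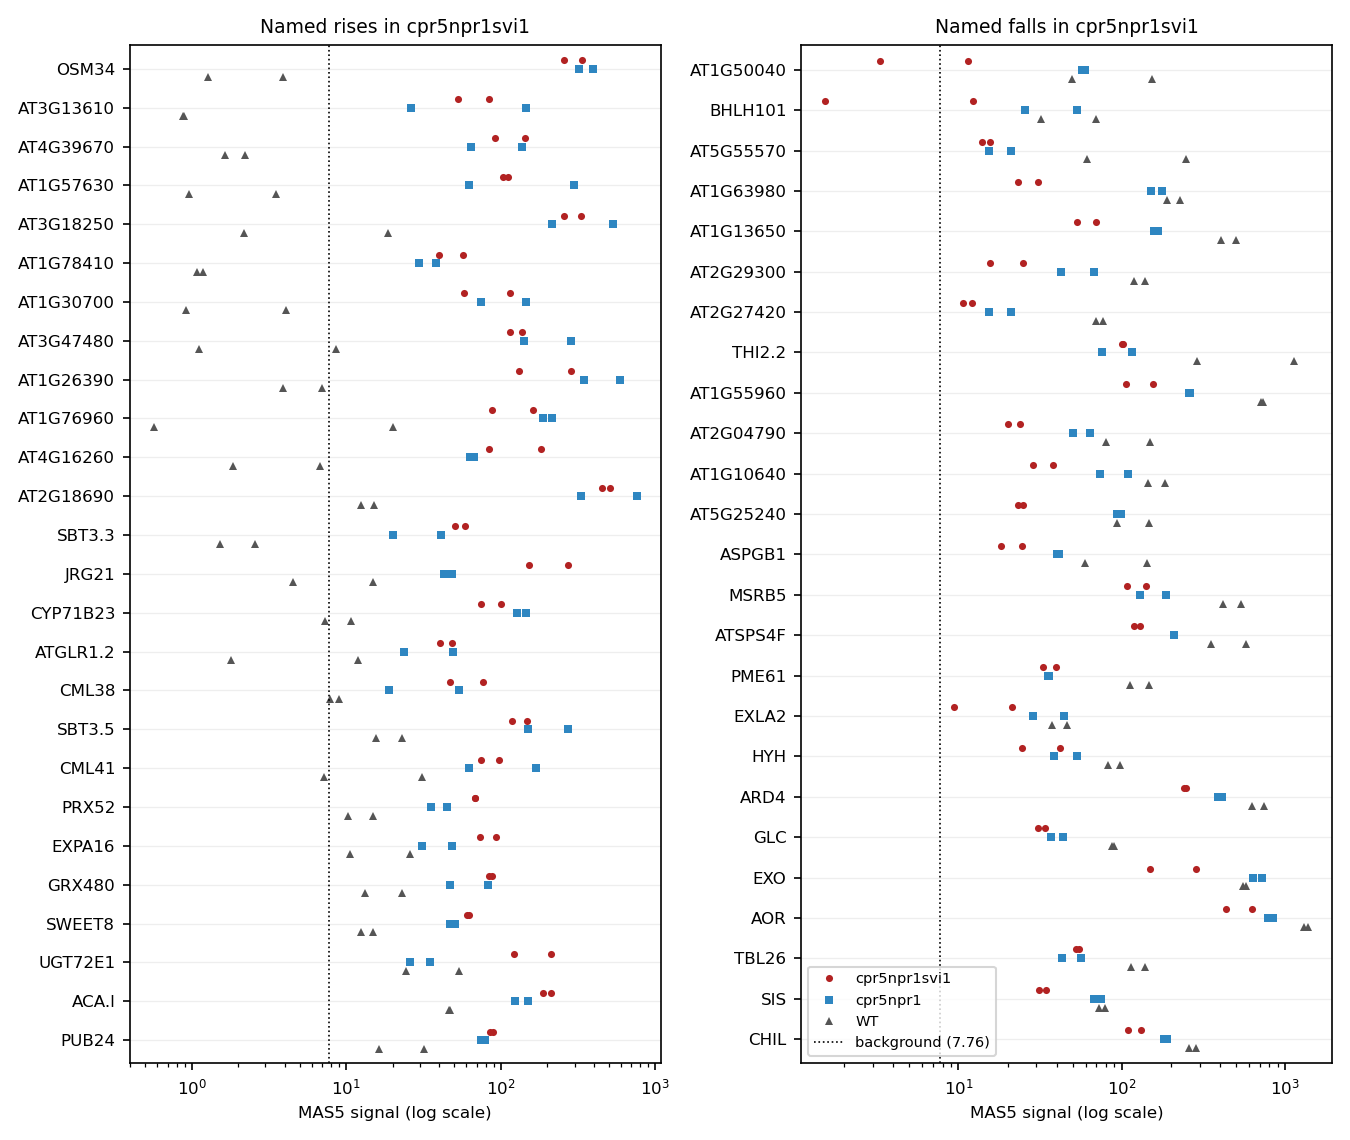
MAS5 signal on a log axis of the named rises (left) and falls (right), with 2 arrays each of cpr5npr1svi1 (red circles), cpr5npr1 (blue squares) and WT (grey triangles), and a dotted line at the background signal of 7.76. Among the rises, WT lies mostly near or below background and the 2 mutants lie together for most genes, with UGT72E1 and JRG21 as exceptions. Among the falls, cpr5npr1 lies between cpr5npr1svi1 and WT for many genes.

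Falls included loci that were low in cpr5npr1svi1 alone of the 3 genotypes and loci that were lower in both mutants than in WT. AT1G63980 was of the first kind. Its signal was 23.0 and 30.8 in cpr5npr1svi1 and 152 and 176 in cpr5npr1, against 190 and 229 in WT. In cpr5scv1 it was 120 and 159. The cpr5npr1svi1 arrays lay well below all others, 7.84-fold below WT (log2 -2.97 ± 0.13, SE, adjusted p = 2.87e-06) and, on the log2 scale, -2.62 from cpr5npr1 (adjusted p = 2.94e-05).

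BHLH101, a transcription factor of the iron deficiency response, had 1.53 and 12.2 in cpr5npr1svi1 and 25.7 and 53.3 in cpr5npr1, against 31.9 and 70.0 in WT. It was at least 4.86-fold lower in cpr5npr1svi1 than in WT (adjusted p = 0.00418). One cpr5npr1svi1 array was below background. The groups did not overlap, which the rule for named falls required. AT1G50040 had 11.4 and 3.30 in cpr5npr1svi1 and 56.7 and 59.8 in cpr5npr1, against 153 and 49.9 in WT, at least 9.31-fold lower in cpr5npr1svi1 than in WT (adjusted p = 0.001). Against cpr5npr1 both were called lower in limma, BHLH101 at an adjusted p of 0.0257 and AT1G50040 at 0.0101. The BHLH101 call was lost without the replicate block (0.207) and with no intensity trend (0.0628). Both calls were lost on leaving out some single arrays. In cpr5scv1 these genes were low as well, with 3.35 and 19.3 for BHLH101 and 9.22 and 18.7 for AT1G50040.

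AT1G13650 and AT1G55960 were graded across the 3 genotypes. Both were also low in cpr5scv1, with 84.8 and 82.7 for AT1G13650 and 125 and 139 for AT1G55960. AT1G13650 had 53.1 and 69.3 in cpr5npr1svi1 and 158 and 167 in cpr5npr1, against 403 and 501 in WT, 7.41-fold lower in cpr5npr1svi1 than in WT (adjusted p = 5.54e-06). AT1G55960 had 155 and 106 in cpr5npr1svi1 and 263 and 257 in cpr5npr1, against 711 and 732 in WT, 5.64-fold lower in cpr5npr1svi1 than in WT (adjusted p = 1.86e-05). The direct test against cpr5npr1 called both lower, at adjusted p-values of 0.00177 for AT1G13650 and 0.00786 for AT1G55960, the second lost without cpr5npr1svi1 replicate 2 (0.0817) and without cpr5npr1 replicate 2 (0.0698).

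THI2.2, a thionin and thus a small antimicrobial protein, was low in both mutants, with 102 and 101 in cpr5npr1svi1 and 75.3 and 116 in cpr5npr1, against 291 and 1140 in WT. The WT arrays themselves differed widely, and the fall of 5.66-fold in cpr5npr1svi1 (adjusted p = 0.00487) was lost without cpr5npr1svi1 replicate 2 (0.0571). The other loci among the 12 largest falls, AT5G55570, AT2G29300, AT2G27420, AT2G04790, AT1G10640 and AT5G25240, were 4.88-fold to 8.30-fold lower in cpr5npr1svi1 than in WT. They kept their calls under each alternative in which they were tested, where passing without the replicate block was a condition of their choice. Low signal in cpr5scv1 was also seen for AT5G55570 (6.93 and 5.53), AT2G29300 (10.8 and 15.1) and AT2G27420 (3.08 and 8.4). The same held for AT2G04790 (28.2 and 29.4) and AT1G10640 (24.4 and 42.9).

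The falls with a symbol held genes of primary metabolism, light signalling and the wall. The asparaginase ASPGB1 had 18.1 and 24.5 in cpr5npr1svi1 and 41.1 and 40.4 in cpr5npr1, against 59.2 and 143 in WT, 4.37-fold lower in cpr5npr1svi1 than in WT (adjusted p = 0.00119). The sucrose-phosphate synthase ATSPS4F had 130 and 119 in cpr5npr1svi1 and 208 and 210 in cpr5npr1, against 580 and 351 in WT, 3.62-fold lower in cpr5npr1svi1 than in WT (adjusted p = 0.000323). For both enzymes the cpr5npr1 arrays lay between the other 2 genotypes.

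HYH, a bZIP factor of light signalling, had 41.8 and 24.4 in cpr5npr1svi1 and 53.5 and 38.5 in cpr5npr1, against 97.2 and 82.7 in WT (2.81-fold lower in cpr5npr1svi1 than in WT, adjusted p = 0.00317). CHIL, a chalcone isomerase-like protein that aids flavonoid synthesis, had 132 and 109 in cpr5npr1svi1 and 188 and 181 in cpr5npr1, against 286 and 257 in WT (2.26-fold lower in cpr5npr1svi1 than in WT, adjusted p = 0.00292). EXO, a growth-promoting brassinosteroid-responsive gene, followed another pattern, with 149 and 285 in cpr5npr1svi1 and 638 and 727 in cpr5npr1, against 550 and 580 in WT. It was low only in cpr5npr1svi1 of these 3 genotypes, 2.74-fold below WT (adjusted p = 0.00141) and -1.73 from cpr5npr1 on the log2 scale (adjusted p = 0.00312).

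The methionine sulfoxide reductase MSRB5 fell 3.85-fold, the pectin methylesterase PME61 3.54-fold, the methionine salvage enzyme ARD4 2.80-fold and the chloroplast reductase AOR 2.58-fold, with adjusted p-values between 0.000127 and 0.000421. GLC and TBL26 also fell, 2.74-fold and 2.34-fold. The fall of EXLA2, an expansin-like protein (2.95-fold, adjusted p = 0.012), was lost without cpr5npr1svi1 replicate 1 (0.108) and without WT replicate 1 (0.0906), and that of SIS (2.32-fold, adjusted p = 0.00931) without cpr5npr1svi1 replicate 2 (0.105) and without WT replicate 1 (0.0588).

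Gene lists were described by how many tested members passed, against 9.50% of placed probe sets higher, 8.46% lower and a median log2 difference of 0.03. Berberine bridge enzyme-like genes, oxidases of which several act in defence metabolism, had 7 of 10 tested members higher, none lower and a median of 1.70, and 4 to 7 were called higher when 1 of the 4 arrays was left out. Only 10 of their 20 probe sets passed the brightness filter. AT1G26390 had 131 and 283 in cpr5npr1svi1 and 589 and 344 in cpr5npr1, against 6.98 and 3.92 in WT (adjusted p = 0.000477). AT4G20830 had 290 and 400 in cpr5npr1svi1 and 255 and 248 in cpr5npr1, against 93.2 and 74.3 in WT (adjusted p = 0.000107). The same tested members had a median of 1.56 in cpr5npr1 relative to WT, with the same limit.

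Calcium signalling genes had 3 of 6 tested members higher and none lower, with a median of 0.94. All 6 were calmodulin-like (CML) genes, so other calcium signalling families of the list were not covered. CML38, a calmodulin-like calcium sensor, had 47.2 and 76.4 in cpr5npr1svi1 and 54.0 and 18.9 in cpr5npr1, against 7.83 and 8.97 in WT, a 7.17-fold rise in cpr5npr1svi1 (adjusted p = 0.00295). CML42, a second sensor, had 136 and 181 in cpr5npr1svi1 and 74.5 and 151 in cpr5npr1, against 66.6 and 62.4 in WT (adjusted p = 0.00303). The call of CML41 (adjusted p = 0.0128) was lost without cpr5npr1svi1 replicate 1 (0.0956), without cpr5npr1svi1 replicate 2 (0.0602) and without WT replicate 1 (0.0522).

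Glutamate receptor-like channels, which carry calcium signals, had 3 of 7 members higher and 1 lower, with a median of 0.67 in cpr5npr1svi1 and 1.39 in cpr5npr1 relative to WT. ATGLR1.2 had 48.3 and 40.2 in cpr5npr1svi1 and 49.2 and 23.8 in cpr5npr1, against 11.9 and 1.79 in WT, at least 4.59-fold higher in cpr5npr1svi1 than in WT (adjusted p = 0.00263). GLR2.7 had 32.9 and 34.3 in cpr5npr1svi1 and 70.1 and 66.5 in cpr5npr1, against 11.2 and 16.8 in WT. It rose 2.45-fold in cpr5npr1svi1 relative to WT (adjusted p = 0.00223), and the test against cpr5npr1 called it lower by a log2 difference of -1.02 (adjusted p = 0.0267), a call lost without the replicate block (0.0902) and without any 1 of those 4 arrays (0.0742 to 0.2). The calls of GLR2.8 (higher, adjusted p = 0.0344) and GLR3.3 (lower, adjusted p = 0.0207) were lost on leaving out single arrays, for GLR2.8 each of the 4 (0.0794 to 0.184) and for GLR3.3 cpr5npr1svi1 replicate 1 (0.158), WT replicate 1 (0.0537) and WT replicate 2 (0.0793).

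Salicylic acid genes had 3 of 3 tested members higher, with a median of 1.13, but 0 to 2 passed when 1 array was left out and 1 without the replicate block. The list named more loci, PR1, PR2 and PR5 among them, but only 3 had a placed probe set. Besides GRX480 the tested members were AT5G52810 and SAG101, whose protein pairs with EDS1 in immunity. AT5G52810 had 100 and 108 in cpr5npr1svi1 and 187 and 126 in cpr5npr1, against 31.5 and 71.8 in WT. SAG101 had 36.4 and 45.6 in cpr5npr1svi1 and 80.1 and 37.5 in cpr5npr1, against 16.8 and 22.4 in WT. Their adjusted p-values were 0.0256 and 0.0441. Leaving out cpr5npr1svi1 replicate 1, cpr5npr1svi1 replicate 2 or WT replicate 1 gave 0.128, 0.114 and 0.18 for AT5G52810, and 0.0812, 0.268 and 0.223 for SAG101.

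Among jasmonate and ethylene defence genes, 1 of 4 rose and 1, THI2.2, fell. PDF1.2, a plant defensin, had 38.4 and 177 in cpr5npr1svi1 and 24.5 and 29.6 in cpr5npr1, against 4.48 and 15.2 in WT (adjusted p = 0.0287). The groups did not overlap, but the call was lost without the replicate block (0.175) and on leaving out any of the 4 arrays (0.0618 to 0.15). PDF1.2b had 58.3 and 300.0 in cpr5npr1svi1 and 28.1 and 10.6 in cpr5npr1, against 17.7 and 13.2 in WT, and was not called against WT (adjusted p = 0.0853), although it passed with a pseudocount of 32 (0.0187) and when only the groups compared were fitted (0.0359). In both defensins the second cpr5npr1svi1 array was several times brighter than the first.

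WRKY factors had 2 of 5 tested members higher and 1 lower. WRKY47 had 71.0 and 77.9 in cpr5npr1svi1 and 103 and 85.2 in cpr5npr1, against 29.4 and 32.7 in WT (2.4-fold higher in cpr5npr1svi1 than in WT, adjusted p = 0.00141). WRKY53, a regulator of leaf senescence, had 53.7 and 104 in cpr5npr1svi1 and 69.0 and 68.1 in cpr5npr1, against 27.3 and 30.6 in WT (adjusted p = 0.00397, 0.0593 without cpr5npr1svi1 replicate 2). WRKY22 was lower (adjusted p = 0.0282), a call lost without cpr5npr1svi1 replicate 1 (0.207) and without WT replicate 2 (0.138). WRKY53 was also the only called member of 3 tested senescence genes.

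Autophagy genes had 2 of 10 tested members higher, with a median of 0.37. Every tested member but ATG8B had a positive difference, as did 53.2% of all placed probe sets. APG8A, which codes for an ATG8 protein of the autophagosome membrane, had 180 and 244 in cpr5npr1svi1 and 256 and 240 in cpr5npr1, against 129 and 106 in WT (adjusted p = 0.00669, 0.0865 without cpr5npr1svi1 replicate 2). ATG8H had 63.1 and 57.6 in cpr5npr1svi1 and 121 and 111 in cpr5npr1, against 42.8 and 51.7 in WT. It was lower than in cpr5npr1 by a log2 difference of -0.94 (adjusted p = 0.0169) and not called against WT (adjusted p = 0.191). The call against cpr5npr1 was lost without the replicate block (0.0654), without cpr5npr1svi1 replicate 1 (0.0512), without cpr5npr1svi1 replicate 2 (0.168) and without cpr5npr1 replicate 1 (0.135). The call of ATG8D against WT (adjusted p = 0.0154) was lost without cpr5npr1svi1 replicate 1 (0.0588), without cpr5npr1svi1 replicate 2 (0.12) and without WT replicate 2 (0.0812). BZIP60, a transcription factor of the endoplasmic reticulum stress response, was the called member of 4 tested folding genes, with 241 and 349 in cpr5npr1svi1 and 285 and 230 in cpr5npr1, against 112 and 192 in WT (adjusted p = 0.0102, 0.112 without cpr5npr1svi1 replicate 2 and 0.0745 without WT replicate 1).

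Secretory traffic genes, a list drawn up after the annotation and results were seen, had 9 of 29 tested members higher and none lower, with a median of 0.15. The number higher was 4 without the replicate block and 1 to 8 when 1 array was left out. VPS20.1, a subunit of the ESCRT-III complex that sorts membrane proteins for degradation, had 56.7 and 78.4 in cpr5npr1svi1 and 62.6 and 62.1 in cpr5npr1, against 22.4 and 33.3 in WT (2.45-fold higher in cpr5npr1svi1 than in WT, adjusted p = 0.00132). SEC1B, which acts in vesicle fusion, had 55.0 and 50 in cpr5npr1svi1 and 52.3 and 25.7 in cpr5npr1, against 24.4 and 19.1 in WT (adjusted p = 0.00974, 0.09 without cpr5npr1svi1 replicate 2).

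UDP-glycosyltransferases had 4 of 25 members higher and 2 lower. UGT85A2 had 155 and 254 in cpr5npr1svi1 and 181 and 224 in cpr5npr1, against 43.8 and 115 in WT, a 2.80-fold rise in cpr5npr1svi1 (adjusted p = 0.00224). Cytochrome P450 genes had 2 of 14 higher and 1 lower, with a median of 0. Sugar transporters, of which all 10 tested members were SWEET genes, had 2 higher and 2 lower. SWEET16, a vacuolar sugar transporter, had 57.4 and 74.9 in cpr5npr1svi1 and 44.8 and 64.3 in cpr5npr1, against 108 and 153 in WT (1.96-fold lower in cpr5npr1svi1 than in WT, adjusted p = 0.00161). Cell wall genes, a list added later, had 4 of 39 higher and 6 lower, and 3 higher and 10 lower with scaling to one median.

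Few photosynthesis genes passed the test. None of 69 chloroplast-encoded genes was called in either direction with limma, where 6 were lower and 0 higher at an unadjusted p below 0.05, and their median was -0.06 with a range of -0.54 to 0.26. When 1 array was left out, 0 to 2 were called lower. With scaling to one median, which lowered the median difference of all probe sets, 10 of the 69 were called lower and none higher. Of 8 nuclear photosynthesis genes only PORB, an enzyme of chlorophyll synthesis, was called (with scaling to one median 2 others were lower), with 1590 and 2300 in cpr5npr1svi1 and 805 and 1300 in cpr5npr1, against 887 and 948 in WT, a 2.08-fold rise in cpr5npr1svi1 (adjusted p = 0.002). PORB was also called higher than in cpr5npr1 in limma (log2 0.9, adjusted p = 0.0176), where cpr5npr1 differed from WT by a log2 of 0.16. Glutathione S-transferases, detoxification enzymes, had none of 6 higher and 2 lower, GSTU18 and GSTU16, at adjusted p-values of 0.00651 and 0.0282. The GSTU18 call was lost without cpr5npr1svi1 replicate 2 (0.0766), and the GSTU16 call without cpr5npr1svi1 replicate 1 (0.154), without cpr5npr1svi1 replicate 2 (0.0904) and without WT replicate 1 (0.16). The glucosinolate gene AT2G31790 was lower, with 204 and 176 in cpr5npr1svi1 and 223 and 227 in cpr5npr1, against 336 and 386 in WT (adjusted p = 0.00191).

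**Figure D3:**
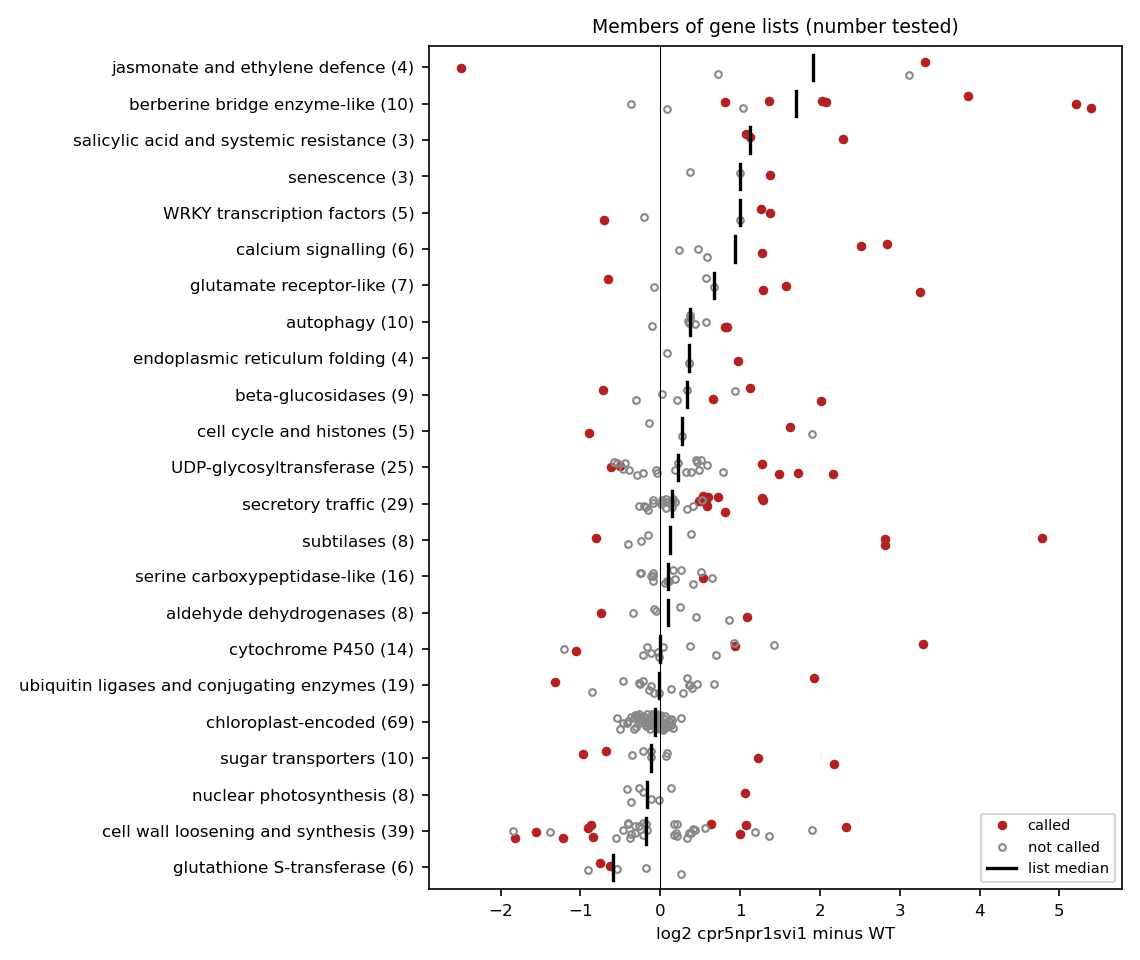
Log2 difference between cpr5npr1svi1 and WT for each tested member of the gene lists with 3 or more tested members, ordered by list median (black bars); filled red points were called and open grey points were not. Vertical scatter within a list carries no value. Berberine bridge enzyme-like genes have 7 of 10 tested members called, all higher, and the 69 chloroplast-encoded genes lie between -0.54 and 0.26.

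A group of probe sets that differed between cpr5 and npr1 was then followed into the triple mutant. These lines differ at both CPR5 and NPR1, so the choice does not single out responses to cpr5. It was chosen by the contrast of cpr5 with npr1, in the fit whose replicate block, residual spread and brightness filter were shared by all 12 arrays. When only the 4 cpr5 and npr1 arrays were fitted for the choice, the medians given next were 0.85 for the probe sets higher in cpr5 and -0.38 for the lower ones. Of 1290 probe sets higher in cpr5 than in npr1, the median difference between cpr5npr1svi1 and WT was 0.91, with 0.87 in replicate pair 1 and 0.88 in pair 2, against 0.03 over all 15536. In that set 802 (62.2%) were called higher in cpr5npr1svi1 than in WT and 19 lower. Of 763 probe sets lower in cpr5 than in npr1, the median was -0.40, with -0.38 and -0.39 in the 2 pairs, and 315 (41.3%) were called lower and 26 higher.

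The cpr5npr1 arrays gave similar medians for the same probe sets, 1.01 for the first set and -0.44 for the second, in a comparison that shares the WT arrays. Between the mutants themselves, the first set had a median of -0.14 in cpr5npr1svi1 minus cpr5npr1, with -0.31 in pair 1 and 0.02 in pair 2, so the pairs did not agree on a difference. Of the 1290, 24 were called higher and 48 lower than in cpr5npr1, and of the 763, 43 were higher and 18 lower. Over all 15536 probe sets 1.61% were called higher and 1.49% lower. Among placed probe sets only, the medians against WT were 0.79 for 627 and -0.37 for 361, with 57.7% and 38.0% called the same way. Against cpr5npr1, 4 of the 627 were called higher and 28 lower, and 18 of the 361 were higher and 7 lower. Over all placed probe sets 0.780% were higher and 1.42% lower than in cpr5npr1.

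**Figure D4:**
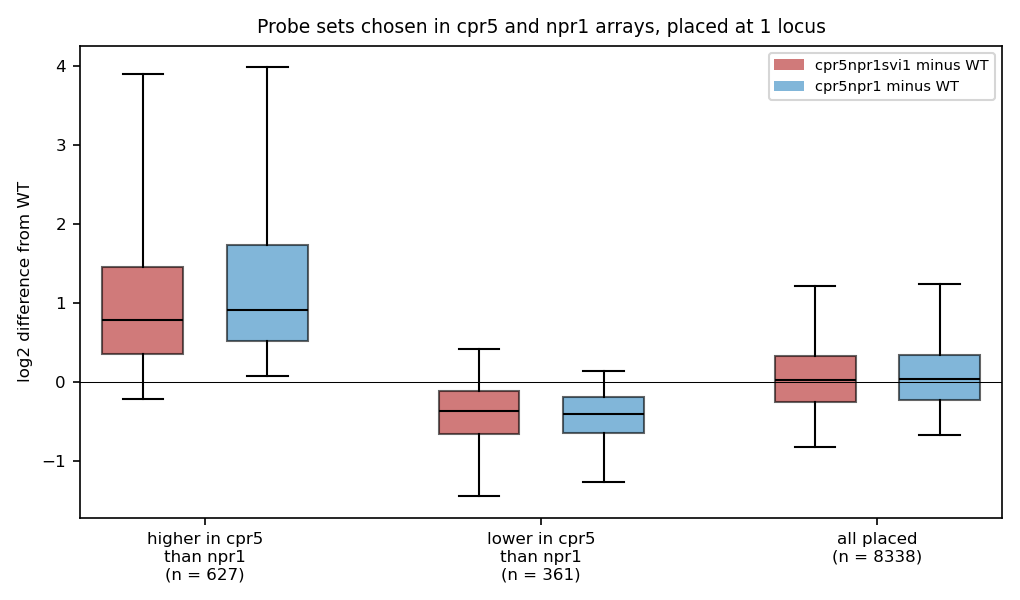
Log2 difference from WT in cpr5npr1svi1 (red, left in each pair) and cpr5npr1 (blue, right) for placed probe sets called higher (627) or lower (361) in cpr5 than in npr1, and for all 8338. Lines mark medians, boxes the middle 50% and whiskers the 5th to 95th percentile; in both mutants the first set lies above 0 and the second below. Both comparisons use the same WT arrays.

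Few probe sets separated cpr5npr1svi1 from cpr5npr1 outside the left-out stretch. Among placed probe sets, 65 were higher (0.780%) and 118 lower (1.42%) in cpr5npr1svi1 than in cpr5npr1. The counts were 14 and 25 without the replicate block, and 10 to 27 and 26 to 43 when 1 of these 4 arrays was left out. In cpr5npr1 relative to WT, 771 were higher (9.25%) and 428 lower (5.13%). The contrasts share arrays, so their counts are given side by side and not as an overlap.

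Among the genes higher than in cpr5npr1, AT1G26650 and AT1G26640, with consecutive locus codes on chromosome 1, were at the WT level in the triple mutant. AT1G26650 had 167 and 126 in cpr5npr1svi1 and 6.75 and 7.23 in cpr5npr1, against 152 and 132 in WT. AT1G26640 had 137 and 134 in cpr5npr1svi1 and 5.05 and 10.4 in cpr5npr1, against 139 and 113 in WT. The double mutant was the low genotype in both, near or below background, with an adjusted p of 0.000205 for each against cpr5npr1svi1, and neither was called between cpr5npr1svi1 and WT (adjusted p = 0.957 and 0.826). In cpr5 and npr1 arrays AT1G26650 ranged between 55.6 and 137.0.

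AT3G23550 and UGT72E1, by contrast, were high in cpr5npr1svi1 and near the WT level in cpr5npr1. AT3G23550 had 415 and 420 in cpr5npr1svi1 and 53.6 and 47.5 in cpr5npr1, against 62.6 and 25.4 in WT, 10.5-fold higher in cpr5npr1svi1 than in WT (adjusted p = 0.000689), and its call against cpr5npr1 (adjusted p = 0.00543) was lost on leaving out cpr5npr1svi1 replicate 1 (0.0555), cpr5npr1svi1 replicate 2 (0.0608) or cpr5npr1 replicate 2 (0.0511). UGT72E1, a glucosyltransferase of lignin precursor aldehydes, had 122 and 212 in cpr5npr1svi1 and 25.8 and 34.7 in cpr5npr1, against 24.3 and 53.8 in WT. It was 4.46-fold higher than in WT (adjusted p = 0.000139) and 2.43 higher on the log2 scale than in cpr5npr1 (adjusted p = 0.000743). In cpr5scv1 AT3G23550 had 484 and 325 and UGT72E1 had 88.8 and 139.

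ALDH2C4, an aldehyde dehydrogenase that makes ferulic and sinapic acid, and CYP71B6, a cytochrome P450, showed a smaller difference of the same form. ALDH2C4 had 819 and 888 in cpr5npr1svi1 and 532 and 392 in cpr5npr1, against 388 and 416 in WT, 2.12-fold higher in cpr5npr1svi1 than in WT (adjusted p = 0.00131). CYP71B6 had 270 and 275 in cpr5npr1svi1 and 157 and 146 in cpr5npr1, against 161 and 126 in WT, 1.91-fold higher in cpr5npr1svi1 than in WT (adjusted p = 0.0012). Their calls against cpr5npr1 (adjusted p = 0.0136 and 0.00864) were lost on leaving out single arrays, at 0.0773 to 0.116 for ALDH2C4 and 0.0529 to 0.0936 for CYP71B6.

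The genes lower than in cpr5npr1 included AT5G50915 and AT2G31730, which stood above WT in cpr5npr1. AT5G50915 had 55.7 and 38.8 in cpr5npr1svi1 and 275 and 173 in cpr5npr1, against 127 and 90.2 in WT, lower in cpr5npr1svi1 than in both cpr5npr1 (log2 -2.23, adjusted p = 0.000205) and WT (log2 -1.20, adjusted p = 0.000606). AT2G31730 had 23.7 and 23.3 in cpr5npr1svi1 and 89.9 and 84.5 in cpr5npr1, against 36.1 and 25.0 in WT. Its level was near WT in cpr5npr1svi1, with a log2 difference of -1.89 from cpr5npr1 (adjusted p = 0.00221) and -0.35 from WT (adjusted p = 0.297). AT5G25240 had 24.8 and 23.0 in cpr5npr1svi1 and 98.9 and 93.3 in cpr5npr1, against 146 and 93.4 in WT, and was called lower than in cpr5npr1 (adjusted p = 0.00221).

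Wall-loosening genes were among those lower than in cpr5npr1. EXGT-A3, a xyloglucan-modifying enzyme, had 424 and 411 in cpr5npr1svi1 and 831 and 734 in cpr5npr1, against 760 and 811 in WT, lower than in cpr5npr1 (log2 -0.91, adjusted p = 0.00517, 0.0583 without cpr5npr1svi1 replicate 1) and than in WT (log2 -0.91, adjusted p = 0.00104). EXLA1, an expansin-like protein, had 47.7 and 65.1 in cpr5npr1svi1 and 391 and 364 in cpr5npr1, against 153 and 38.8 in WT (log2 -2.76 from cpr5npr1, adjusted p = 0.0197). The EXLA1 call was lost without the replicate block (0.0714) and on leaving out any 1 of the 4 mutant arrays (0.0516 to 0.179). Of the 39 wall genes, 4 were lower and none higher than in cpr5npr1, against 1.42% lower and 0.780% higher over all placed probe sets. The other 2 were the pectin methylesterase PMEPCRF (log2 -1.01, adjusted p = 0.013) and the xyloglucan-modifying XTH16 (log2 -0.78, adjusted p = 0.0467). PMEPCRF lost its call without cpr5npr1svi1 replicate 1 (0.125), cpr5npr1svi1 replicate 2 (0.0552) or cpr5npr1 replicate 1 (0.0769), and XTH16 without the replicate block (0.126) or any 1 of the 4 mutant arrays (0.0979 to 0.321). With no intensity trend the calls of EXLA1 (0.0654), PMEPCRF (0.054) and XTH16 (0.118) were lost, and with no filter that of XTH16 (0.0587). Both the wall list and these 4 genes were chosen after values were seen, so the count is a description only.

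**Figure D5:**
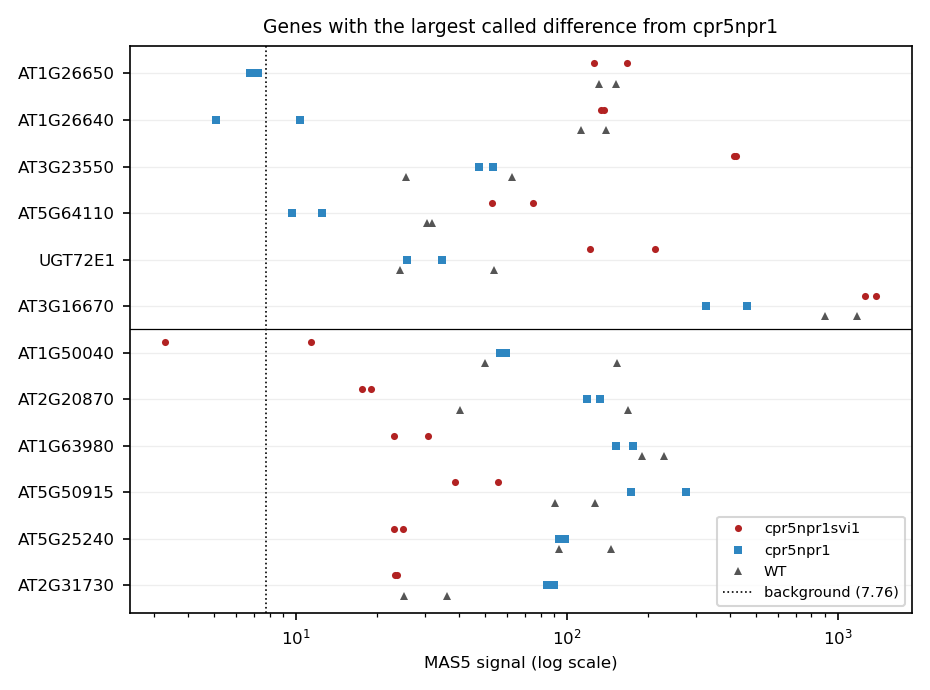
MAS5 signal on a log axis of the 6 genes most above (top) and the 6 most below (bottom) cpr5npr1 among called placed probe sets, with 2 arrays each of cpr5npr1svi1 (red circles), cpr5npr1 (blue squares) and WT (grey triangles). AT1G26650 and AT1G26640 are near background in cpr5npr1 only, AT3G23550 and UGT72E1 are highest in cpr5npr1svi1, and AT1G63980 is low in cpr5npr1svi1 only.

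The left-out stretch held 386 tested probe sets, of which 199 were higher and 9 lower in cpr5npr1svi1 than in WT with a median of 0.74, and against cpr5npr1 149 were higher and 2 lower with a median of 0.75. At its edges, AT2G36200 outside and AT2G36240 inside had log2 differences from WT of -0.01 and 0.11, and AT2G45860 inside and AT2G45870 outside had 1.07 and 0.03. The only one of the 4 called was AT2G45860 (adjusted p = 0.00441), a call lost without the replicate block (0.152). A chitinase and the cold genes COR15A and COR15B lie inside it and are therefore not counted above. The chitinase CHI had 1190 and 1370 in cpr5npr1svi1 and 1120 and 440 in cpr5npr1, against 23.2 and 9.49 in WT, and the cold-regulated COR15A had 415 and 352 in cpr5npr1svi1 and 171 and 130 in cpr5npr1, against 30.9 and 40.6 in WT. COR15B had 88.4 and 96.5 in cpr5npr1svi1 and 46.9 and 47.1 in cpr5npr1, against 38.3 and 37.8 in WT. Outside the stretch, neither of the 2 tested cold genes was called, COR47 at an adjusted p of 0.762 and LTI30 at 0.133 in limma, with 1 of the 2 higher at an unadjusted p below 0.05, although LTI30 passed without WT replicate 2 (0.0275).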

How the data were processed

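The data are MAS5 signal from Affymetrix ATH1 arrays, an intensity on a linear scale as deposited; the software is named in the submitters' processing notes, and the sources used here do not give its version, detection calls or scaling settings. The trimmed mean of the deposited intensity was 100.01, so the arrays had been scaled to one target, and no further normalization was applied. The log2 of the signal was taken from the deposited values here, with no pseudocount. The number of arrays limits the precision.

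Of 22810 probe sets, 64 control sets and the dimmest 30% of the other 22746 by mean log2 signal were left out, which left 15922 tested, 15536 of them outside the left-out stretch. The platform annotation gave 1 gene for 13513 of the 22746 probe sets, several for 503 and none for 8730. Of these, 13436 were placed through the gene table of TAIR10.1, and 1551 carried a symbol. Genes were placed by locus code, since the annotation names no build.

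The model, fitted with limma 3.58.1 in R 4.3.3 (lmFit and eBayes, allowing for an intensity trend), held 6 group means plus the replicate number as a block over 12 arrays, with 5 residual and 5.29 prior degrees of freedom. The replicate numbers come from the titles; between all 15 pairs of groups the deviations correlated at 0.175 to 0.363, and the arrays were treated as paired by number. Calls used Benjamini-Hochberg adjusted p-values below 0.05 over all tested probe sets of a contrast. On simulated data of this design with 15922 probe sets, 50% of changes of 1 log2 unit and 87.8% of changes of 2 were called for cpr5npr1svi1 against WT. Only 96 and 98 tested probe sets carried these changes, and no other genotype difference was simulated. Far more probe sets were called in the data, so these shares may not carry over to them.

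Background was the 95th percentile of 27 bacterial control sets, which was chosen with the data in view. Where an array of the dimmer group lay below it, that array was raised to it, which makes the fold a lower bound; a fold otherwise is the ratio of geometric means.

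The comparison, the gene lists and the rule for named genes were chosen with earlier results of these data known. The rule took, among placed probe sets outside the stretch called with and without the block, whose arrays did not overlap and with a brighter group averaging at least the median signal of 40.8, the 12 largest rises and falls; up to 4 called members per list, or 2 uncalled ones; fixed defence genes; the edges of the stretch; and up to 6 per direction against cpr5npr1. The 15 largest with a symbol per direction, CHI, COR15A and COR15B, 7 of the 27 lists, and AT4G20830, PDF1.2b, ATG8H, ATG8B, EXGT-A3, EXLA1, PMEPCRF and XTH16 were added after values were seen. The symbols CYP71 and HISN5B were dropped from lists matched by symbol. Receptor-like kinases had no placed probe set.

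Alternatives were no block, quantile normalization, scaling to one median, no filter, the dimmest 50% left out, a pseudocount of 32, no intensity trend, only the groups compared, each array left out and other placings. Without an array, the lone array of its group is assumed to vary like those of the other groups. The planned search of promoter letters was not run, as no promoter sequences were used here.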

Additional observations from a re-analysis of the deposited data

How the results depend on the processing

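No called difference of a named gene from WT, and none of the 12 genes chosen for a call against cpr5npr1, changed sign under any alternative run; differences from WT that were not called did, such as EXLA1 (-0.47, 0.17 without cpr5npr1svi1 replicate 1 and 0.35 without WT replicate 1) and PMEPCRF (0.17, -0.03 with scaling to one median). The share of calls that were higher, 54.5%, turned to a minority with quantile normalization (46.3%) and scaling to one median (31.6%). Against WT, the count of higher probe sets was 1742 and moved to 909 with only the groups compared, 792 with placed probe sets only, and 783 to 1922 on leaving out 1 array; the count of lower ones was 1454 and moved to 2619 with scaling to one median, 704 with only the groups compared, 705 with placed probe sets only, and 547 to 1366 on leaving out 1 array. Against cpr5npr1, the 250 higher moved to 147 with no intensity trend, 65 with placed probe sets only, 399 with the stretch kept in, and 52 to 145 on leaving out 1 array; the 231 lower moved to 101 with no intensity trend, 118 with placed probe sets only, and 56 to 73 on leaving out 1 array. Without the replicate block, which pairs the arrays, these counts were 1094 higher and 647 lower against WT and 73 higher and 50 lower against cpr5npr1. The cause was not tested.

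The median of probe sets higher in cpr5 than in npr1 was 0.91 in cpr5npr1svi1 minus WT, and 1.30 without the replicate block, 0.89 with quantile normalization, 0.96 with scaling to one median, 0.98 when nothing was filtered, 0.73 with the dimmest 50% left out, 0.53 with a pseudocount of 32, 0.98 with no intensity trend, 0.85 with only the groups compared, and 0.75 to 1.02 on leaving out 1 array. That of probe sets lower in cpr5 was -0.40, and in the same order -0.47, -0.38, -0.51, -0.42, -0.39, -0.33, -0.42, -0.38, and -0.48 to -0.35. With placed probe sets only, an alternative chosen after seeing the data, the medians were 0.79 and -0.37. Each setting also changes which probe sets are chosen.

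Of 102 named genes called against WT, 15 lost the call without the replicate block, 25 with only the groups compared, 9 with no intensity trend, 7 with no filter, 6 with quantile normalization, 6 with scaling to one median and 2 with a pseudocount of 32; leaving out 1 array lost 12 to 31. Of 12 genes chosen for a call against cpr5npr1, 0 to 3 lost it on leaving out 1 array. The largest rises and falls, and the 12 genes chosen against cpr5npr1, had to pass without the block to be named. Over all placed probe sets, 1497 were called against WT with the block and 776 without it. Limits are 2 arrays per genotype, 8730 probe sets without a gene name, and signals near background, where ratios are only bounds.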

Other observations

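Histone genes, not described above, had 1 of 5 tested members higher and 1 lower in cpr5npr1svi1 than in WT. Over all placed probe sets 9.50% were higher and 8.46% lower. HIS1-3, a linker histone induced by drought, had 33.0 and 51.8 in cpr5npr1svi1 and 26.3 and 17.2 in cpr5npr1, against 15.5 and 11.7 in WT (adjusted p = 0.0117 in limma, 0.137 without cpr5npr1svi1 replicate 2 and 0.054 without WT replicate 2). HTB1, a core histone, had 158 and 210 in cpr5npr1svi1 and 143 and 309 in cpr5npr1, against 391 and 290 in WT (adjusted p = 0.0393), a call lost without the replicate block (0.137), without either cpr5npr1svi1 array (0.147 and 0.169) and without WT replicate 1 (0.302).

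Beta-glucosidases, a list added after results were seen, had 3 of 9 tested members higher and 1 lower. BGLU46, which releases lignin precursors from their glucosides, had 40.6 and 39.8 in cpr5npr1svi1 and 57.5 and 49.3 in cpr5npr1, against 9.64 and 10.3 in WT, a 4.04-fold rise in cpr5npr1svi1 (adjusted p = 0.000841). Its neighbour in the family, BGLU45, had 11.8 and 16.0 in cpr5npr1svi1 and 34.2 and 22.2 in cpr5npr1, against 6.66 and 7.75 in WT, and was not called (adjusted p = 0.0934). Subtilases, also an added list, had 3 of 8 higher and 1 lower, and aldehyde dehydrogenases 1 of 8 higher and 1 lower. Serine carboxypeptidase-like genes had 1 of 16 higher and none lower, and ubiquitin ligases and conjugating enzymes 1 of 19 higher and 1 lower. The shares over all placed probe sets were 9.50% higher and 8.46% lower. The aliphatic glucosinolate list had 2 tested members, of which AT2G31790 fell, and the indolic list had 1, UGT74B1, with 324 and 228 in cpr5npr1svi1 and 323 and 268 in cpr5npr1, against 310 and 409 in WT (adjusted p = 0.271).

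Across the 8338 placed probe sets, the difference between cpr5npr1svi1 and WT in replicate pair 1 correlated with that between cpr5 and npr1 in pair 1 at r = 0.507, and with that in pair 2, where no array and no replicate number is shared, at r = 0.444. These are correlations across probe sets, which are not independent replicates.

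AT3G16670 had 1390 and 1260 in cpr5npr1svi1 and 326 and 462 in cpr5npr1, against 1180 and 898 in WT. It had 581 and 382 in cpr5 and 567 and 378 in cpr5scv1, against 1030 and 715 in npr1, so of the lines that carry cpr5 only cpr5npr1svi1 stood at the level of WT and npr1 in this gene.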
